A study of Rattus norvegicus with 2 samples.

Results

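The genes described here are 3 tissue inhibitors of metalloproteinases (Timp1, Timp2 and Timp3), 3 matrix metalloproteinases (Mmp2, Mmp9 and Mmp14) and Plat, which encodes tissue plasminogen activator. They were chosen by gene symbol from the platform annotation, without regard to a threshold on any value. All 7 genes were found, with 9 of the 8740 non-control probe sets, among 4736 genes that the array names by 1 symbol. The samples were hearts of male rats of the inbred Dahl salt-sensitive strain, which becomes hypertensive on dietary salt, at 17 weeks of age. One array carried heart RNA of the high-salt diet, with chronic heart failure given as the condition, and 1 array that of the low-salt diet, for which no condition is given. The sources used here do not say how many animals an RNA came from or which chamber was taken. The comparison addresses which transcripts differ between the failing high-salt heart and the low-salt heart. Diet and the stated condition change together here, so their parts in a difference cannot be told apart.

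Matrix metalloproteinases are zinc enzymes that cleave collagens, gelatin and other matrix proteins and are made as inactive proenzymes. TIMPs bind their active sites and block them, so matrix turnover in the heart depends on both. The plasminogen system feeds into the same cascade, because plasminogen activators form plasmin, which digests fibrin and can activate several metalloproteinase proenzymes. In the heart, TIMPs and Mmp2 are largely made by fibroblasts and other interstitial cells, and neutrophils and macrophages are known sources of Mmp9. All of these enzymes are controlled strongly after translation, which an RNA array does not read.

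Intensities are linear and 1 value per probe set and array was deposited. Many are below 0, so a noise floor of 126.4 was set at the level that 95% of the readings below 0 do not exceed in size. Readings under it have no reliable order, and ratios were taken after raising lower readings to it. A ratio with 1 reading under the floor is therefore a bound, and none is given where both were under it. The arrays were alike in overall level, with a 2% trimmed mean of 100.2 on each, and 20.0% of probe sets reached the floor on the high-salt array against 20.3% on the low-salt array. The 3' to 5' ratio of the Gapdh controls was 1.30 on the high-salt and 1.22 on the low-salt array, and that of the beta-actin controls 1.16 on the high-salt and 1.10 on the low-salt array. With no replicate there is no test, and the number of arrays limits the precision. The only error available is how far probe sets of 1 gene differ from each other in log2 ratio. The SD of this difference from the gene's mean was 0.22 over 231 genes, or 0.24 over 114 genes whose brighter reading lay in the range of the probe sets described here (141.8 to 695.1). This SD holds no variation between animals.

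Of the 9 probe sets, 4 reached the noise floor on at least 1 array, 1 each for Timp2, Timp1, Mmp2 and Plat. Plat did so through its high-salt reading alone, so its ratio could only be above 1. All 4 ratios were above 1 and none reached 2-fold: 0 of 4 were at least 2-fold higher and 0 of 4 at least 2-fold lower, against 3.53% and 1.69% of the 1955 probe sets on the array that reached the floor. Their median log2 ratio was 0.26, against -0.04 over those 1955. The deposited reading was the higher one on the high-salt array for all 9 probe sets, against 47.0% of the 8740 on the array, but for 5 of the 9 both readings lay under the floor and have no order. A list of reference genes, such as ribosomal proteins and Hprt1, had a median of 0.23 over 11 probe sets on the same pair of arrays. With 4 ratios, 1 of them a bound, no difference between these medians can be read.

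Timp2 encodes an inhibitor that blocks metalloproteinases and also, at the cell surface, takes part with the Mmp14 protein in activating the Mmp2 proenzyme. Its 1 probe set, S72594_s_at, read 695.1 in the high-salt heart, against 433.2 in the low-salt one. This was a 1.60-fold higher level, a log2 ratio of 0.68, and both readings were well over the noise floor. The difference was 2.83 times the SD among probe sets of 1 gene. A ratio at least as high was found for 135 of the 1955 probe sets that reached the floor, or 6.91%. Of the 4, Timp2 alone was past 1.5-fold, a threshold that 8.75% of probe sets passed upward and 9% downward. None of the 4 was past 3-fold, which 1.07% of probe sets passed upward and 0.205% downward. The suffix of this probe set marks a type that can share sequence with other transcripts, and the annotation gives Timp2 no second probe set.

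Timp1 encodes a secreted inhibitor whose gene is known to be induced by cytokines and tissue injury. It had 2 probe sets built on the same expressed sequence tag. The first, rc_AI169327_at, read 258.0 in the high-salt heart, against 209.1 in the low-salt one, 1.23-fold higher with a log2 ratio of 0.30. The second, rc_AI169327_g_at, read 75.8 in high salt against 1.9 in low salt, so both of its readings were under the noise floor. The large apparent ratio of the second probe set is therefore not a measured one. Raised only to the 40th percentile of all values (10.9), it becomes a bound of at least 6.95-fold. It is then the 1 of the 8 measured probe sets to be called higher. That rule calls 7.27% of the 5707 probe sets measured on the array higher and 7.62% lower. With no floor and a pseudocount of 1 it is again the 1 of 8 called higher. There 8.37% of the 5912 probe sets with both readings above 0 are called higher and 9.2% lower. The first probe set, with both readings over the noise floor, differed by 1.26 times the SD among probe sets of 1 gene.

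Timp3 encodes an inhibitor that stays bound to the matrix and also blocks ADAM17, the protease that sheds tumour necrosis factor. Its probe set U27201_at read 119.9 in the high-salt heart, against 110.2 in the low-salt one. Both readings were just under the noise floor, so no ratio is given, and the data show no difference that can be read for Timp3.

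**Figure D1:**
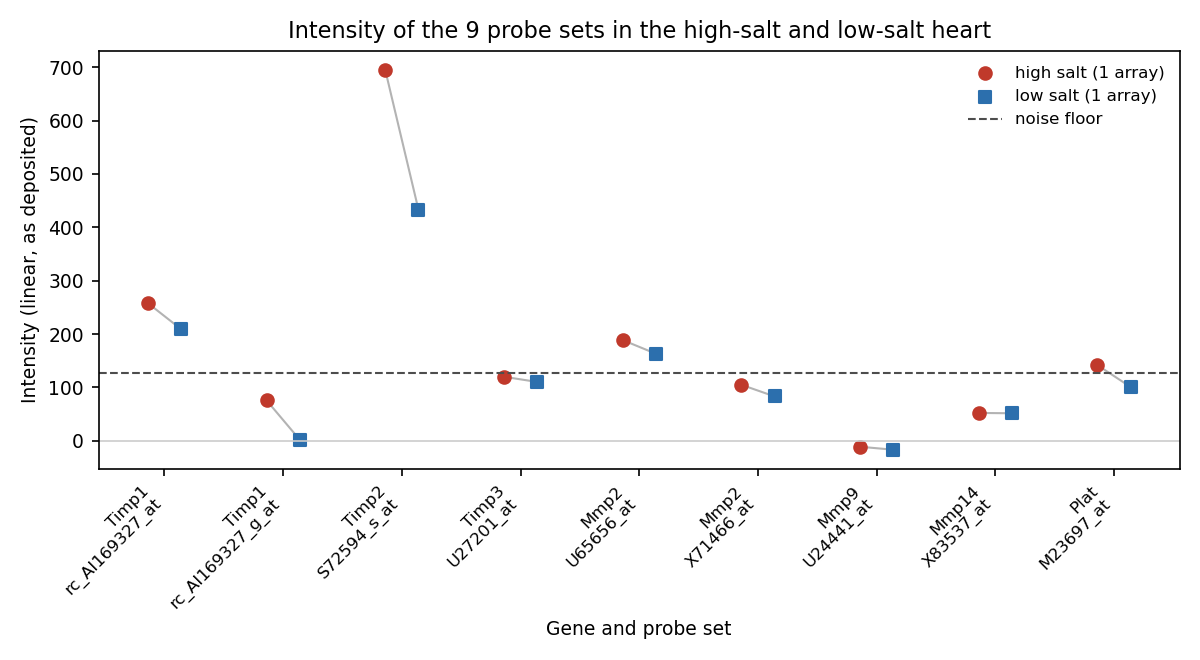
Linear intensity (vertical axis) of each of the 9 probe sets (horizontal axis) in the high-salt heart (red circles) and the low-salt heart (blue squares), 1 array each, with a dashed line at the noise floor of 126.4. Timp2 stands clear of the line with 695.1 in the high-salt heart, against 433.2 in the low-salt one, while 5 of the 9 probe sets lie under it on both arrays.

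The promoter windows of the inhibitors are shown because Timp2 had the highest ratio of the 3 genes here with both readings over the floor, and Timp1 and Timp3 are of the same family. RefSeq (build GRCr8) gave windows for 3 of the 7 genes, and each sequence below is the 250 bases before the start in its table, written 5′ to 3′ on the gene's own strand. Capitals mark matches on either strand to TGAGTAA, a variant of the AP-1 site known from the mouse Timp1 promoter, or to the GC box GGGCGG. The motif TGANTCA, the usual AP-1 site, was also searched and had no match in these windows. TGAGTAA was chosen after the Timp1 sequence was seen.
Timp1, chrX:3771123-3771372, minus strand: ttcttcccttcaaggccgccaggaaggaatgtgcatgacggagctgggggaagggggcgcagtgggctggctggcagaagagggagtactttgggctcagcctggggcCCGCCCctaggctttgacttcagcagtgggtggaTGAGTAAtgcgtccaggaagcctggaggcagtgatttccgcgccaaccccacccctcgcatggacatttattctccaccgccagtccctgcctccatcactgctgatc
Timp2, chr10:104089215-104089464, minus strand: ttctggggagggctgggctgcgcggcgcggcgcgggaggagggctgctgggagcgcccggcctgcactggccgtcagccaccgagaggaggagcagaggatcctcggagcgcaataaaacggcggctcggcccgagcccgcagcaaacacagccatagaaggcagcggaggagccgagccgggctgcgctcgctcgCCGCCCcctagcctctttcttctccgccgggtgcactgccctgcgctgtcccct
Timp3, chr7:19459559-19459808, minus strand: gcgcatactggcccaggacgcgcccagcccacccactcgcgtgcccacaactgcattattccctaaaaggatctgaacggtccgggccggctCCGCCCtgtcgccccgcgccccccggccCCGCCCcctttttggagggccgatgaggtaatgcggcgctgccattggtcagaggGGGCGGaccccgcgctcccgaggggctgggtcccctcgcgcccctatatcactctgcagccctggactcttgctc
The Timp1 window holds 1 TGAGTAA, from 108 to 102 bases before the start, a motif found in 2.38% of 33469 windows of the same length, and TGANTCA is in 6.34% of them. A GC box lies 142 to 137 bases before the start of Timp1 and 54 to 49 bases before that of Timp2, and Timp3 has 3 of them, where 30.5% of all windows hold at least 1. These motifs do not overlap each other. The windows were 61.2% G and C for Timp1, 72.0% for Timp2 and 69.6% for Timp3, against a median of 51.2% over all windows. The match is one of letters and does not show that a factor binds there.

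Mmp2 encodes gelatinase A, which digests denatured collagen and basement membrane collagen. It had 2 probe sets. U65656_at read 188.7 in the high-salt heart, against 163.1 in the low-salt one, 1.16-fold higher with a log2 ratio of 0.21. X71466_at read 104.9 in high salt against 83.1 in low salt, under the noise floor on both arrays. The measured difference was 0.872 times the SD among probe sets of 1 gene, so it was not larger than that spread, and 24.9% of the probe sets that reached the floor had a ratio at least as high.

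Mmp14 encodes the membrane-type metalloproteinase that activates the Mmp2 proenzyme. Its probe set X83537_at read 52.1 in the high-salt heart, against 51.5 in the low-salt one. Mmp9 encodes gelatinase B, and its probe set U24441_at read -11.2 in the high-salt heart, against -16.8 in the low-salt one. Neither gene reached the noise floor on either array, so no level or direction is given for them. A true difference in Mmp9 or Mmp14 RNA below the noise would not be detectable on these arrays.

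Plat encodes tissue plasminogen activator, which converts plasminogen to plasmin on fibrin. Its probe set M23697_at read 141.8 in the high-salt heart, against 100.7 in the low-salt one. As the low-salt reading was under the noise floor, the ratio is at least 1.12-fold higher, a log2 ratio of 0.17. The readings as deposited give 1.41-fold. The bound was 0.686 times the SD among probe sets of 1 gene. As a lower limit it does not show whether the difference exceeded that spread. The SD was also taken only over probe sets with both readings at or above the floor.

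**Figure D2:**
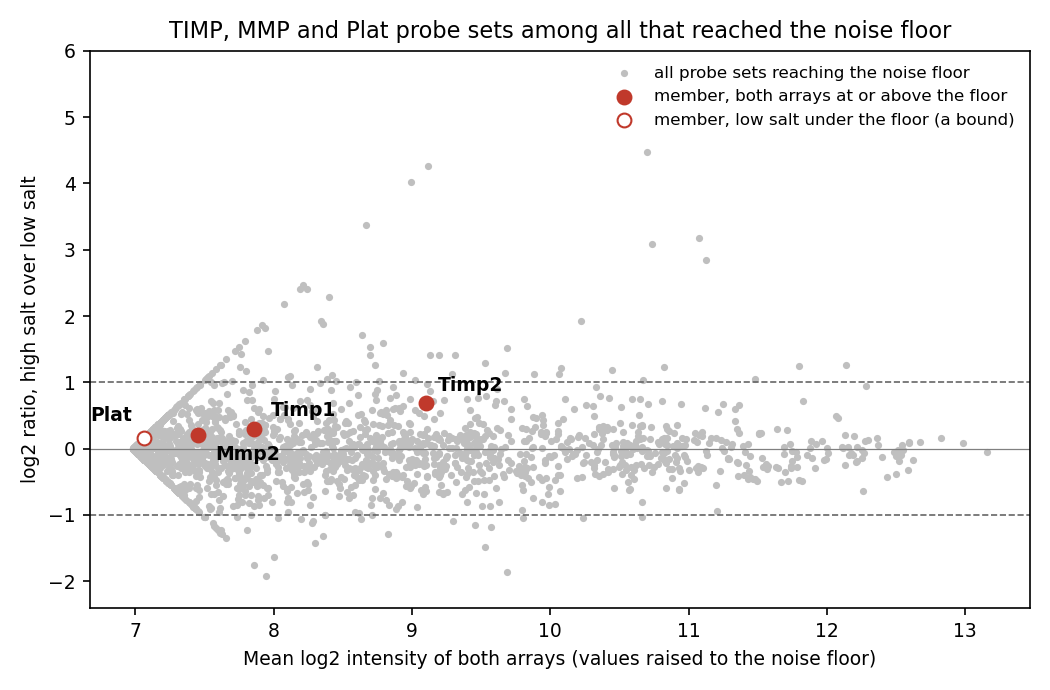
High-salt over low-salt log2 ratio (vertical axis) against the mean log2 intensity of both arrays after raising readings to the noise floor (horizontal axis), for the 1955 probe sets that reached the floor (grey), with Timp1, Timp2 and Mmp2 as filled red points and Plat, a bound, as an open one. Dashed lines mark 2-fold, and Timp2, at a log2 ratio of 0.68, is the highest of the 4 and still inside them.

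Other genes of these pathways were read from lists of inhibitors, metalloproteinases, plasminogen system genes and other matrix proteases. Leaving out the 7 genes above, 39 of 54 listed genes were named on the array, with 51 probe sets. Of these, 18 probe sets of 14 genes reached the noise floor: 1 was at least 2-fold higher, 0 were at least 2-fold lower and 17 were neither. Their median log2 ratio was 0.24. Of the 1955 probe sets on the array that reached the floor, the same rule called 3.53% higher and 1.69% lower. Of the 18, 6 reached the floor through the high-salt reading alone, so their ratios could only be above 1, and none did so through the low-salt reading alone; the median rests in part on them. The gene past 2-fold was Ctsl, which encodes the lysosomal cysteine protease cathepsin L. Its probe set rc_AI176595_s_at read 1151.5 in the high-salt heart, against 471.5 in the low-salt one, 2.44-fold higher. Its second probe set, S85184_g_at, read 137.8 in high salt against 74.2 in low salt, a bound of at least 1.09-fold higher, so it does not show whether the size of the difference was shared.

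Among the other matrix proteases, Ctsb, which encodes cathepsin B, read 643.1 in the high-salt heart, against 337.3 in the low-salt one, 1.91-fold higher. Ctsh, another lysosomal cysteine protease, read 192.0 in high salt against 115.9 in low salt, at least 1.52-fold higher. Furin, a convertase that cleaves the proenzyme of Mmp14, read 178.1 in high salt against 141.0 in low salt in one probe set and 144.3 in high salt against 147.4 in low salt in the other, so its probe sets lay on either side of no difference. The inhibitor Cst3, cystatin C, which blocks cysteine cathepsins, read 1503.3 in high salt against 1182.7 in low salt and 1731.6 in high salt against 1451.9 in low salt, or 1.27-fold and 1.19-fold higher. A2m, a broad protease inhibitor of plasma, had 6 probe sets on the array, all under the noise floor on both.

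In the plasminogen system list, Serping1, which encodes C1 inhibitor, read 238.8 in the high-salt heart, against 117.4 in the low-salt one, at least 1.89-fold higher. Anxa2, a cell-surface docking site for plasminogen and its activator, read 593.6 in high salt against 388.5 in low salt, 1.53-fold higher. Serpine2, an inhibitor of thrombin and plasminogen activators, read 147.7 in high salt against 100.8 in low salt, at least 1.17-fold higher. Plasminogen itself (Plg, -47.6 in high salt against -54.8 in low salt), the urokinase gene Plau (53.6 in high salt against 72.8 in low salt) and its receptor Plaur (-83.6 in high salt against -159.8 in low salt) stayed under the noise floor. Of the metalloproteinase list beyond the 3 genes above, 10 genes were on the array. Bsg, which encodes an inducer of metalloproteinases on neighbouring cells, was the 1 gene of these to reach the floor, with 1940.2 in the high-salt heart, against 1926.3 in the low-salt one, a log2 ratio of 0.01. The remaining 9, Mmp3, Mmp7, Mmp8, Mmp10, Mmp11, Mmp12, Mmp13, Mmp16 and Mmp23, did not reach it on either array.

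Substrates and upstream signals were read in the same way. Of 24 probe sets of matrix substrates that reached the floor, 1 was at least 2-fold higher, none lower and 23 neither. Over the array, 3.53% of the 1955 probe sets that reached the floor were at least 2-fold higher and 1.69% at least 2-fold lower. The substrate ratios were above 1 for 14 and below 1 for 10, with a median on the log2 scale of 0.12, where 45.6% of the 1955 were above 1. Of the 24, 5 reached the floor in high salt alone, so their ratios could only be above 1, and 1 in low salt alone. The one past 2-fold was Bgn, which encodes the proteoglycan biglycan, with 695.2 in the high-salt heart, against 131.6 in the low-salt one, although its second probe set read 0.0 in high salt against 120.2 in low salt, under the floor. Fn1, fibronectin, read 230.0 in high salt against 73.2 in low salt in the 1 of its 5 probe sets that reached the floor. That low-salt reading was under the floor, so the Fn1 ratio is a bound. The collagen gene Col1a1 had 4 probe sets with log2 ratios of 0.12 to 0.83, the lowest of them a bound. Col1a2 read 292.8 in high salt against 193.8 in low salt. The other way, both probe sets of the collagen gene Col3a1 had ratios below 1 (log2 ratios of -0.43 and -0.14), as had all 4 of Dcn, which encodes the proteoglycan decorin (-0.35 to -0.08), and Lum, which encodes lumican, read 115.9 in high salt against 172.1 in low salt. Lum reached the floor in low salt alone, so its ratio is a bound and could only be below 1. Of 4 probe sets of Sparc, a collagen-binding matrix protein, 2 had ratios below 1. The 2 of the laminin gene Lamb2 had log2 ratios of -0.40 and 0.13. Of 7 probe sets of upstream signals that reached the floor, none passed 2-fold and the median was 0.27; 4 of the 7 reached it in high salt alone and 1 in low salt alone. Among them, Jun and Fos, whose products form AP-1, read 276.8 in high salt against 216.3 in low salt and 158.3 in high salt against 107.9 in low salt. The Fos ratio is a bound, as its low-salt reading was under the floor, and other probe sets of both genes lay under it. Ace, the angiotensin-converting enzyme, read 196.1 in high salt against 133.2 in low salt, and Egr1 gave 152.4 in high salt against 87.1 in low salt in one probe set and 95.3 in high salt against 158.3 in low salt in another. Each Egr1 ratio is a bound, as 1 of its readings was under the floor. The cytokine genes Il6, Il1b and Tnf and all 3 TGF-beta genes were under the noise floor. In the reference list, 8 of 11 ratios were above 1 and 3 below. Eef1a1 read 1041.2 in high salt against 632.8 in low salt, Ywhaz 222.8 in high salt against 158.9 in low salt in the probe set with its highest ratio, Rpl13a 1223.1 in high salt against 930.5 in low salt and Hprt1 379.1 in high salt against 291.2 in low salt. For Rpl13a and Hprt1 too, these were the probe sets with the higher ratio. The other one read 362.6 in high salt against 298.7 in low salt for Rpl13a. For Hprt1 it read 750.4 in high salt against 663.5 in low salt. Actb read 1169.5 in high salt against 1347.1 in low salt, and B2m 1097.4 in high salt against 1186.5 in low salt. Another Ywhaz probe set read 246.3 in high salt against 254.2 in low salt.

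**Figure D3:**
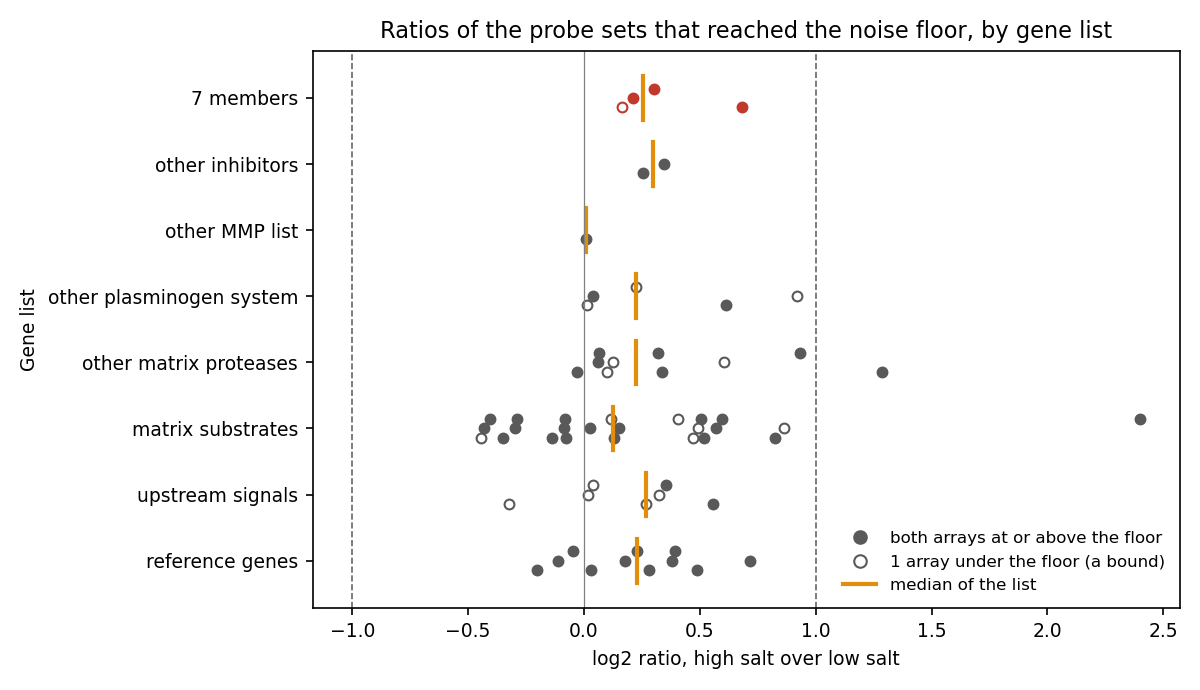
High-salt over low-salt log2 ratio (horizontal axis) for every probe set that reached the noise floor, by gene list (rows), with open circles for bounds, orange bars for list medians and dashed lines at 2-fold. The median of the 4 probe sets of the 7 genes is 0.26 and that of the reference genes 0.23, and Ctsl and Bgn are the points past 2-fold.

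Markers of the cells that make these proteins were read beside them. For the labelled tissue, 6 of 7 cardiomyocyte marker genes reached the floor (Ryr2 did not). Their probe sets summed to 50957.9 in the high-salt heart, against 54069.2 in the low-salt one. Of the 11 cardiomyocyte probe sets that reached the floor, 4 had ratios above 1 and 7 below. Fibroblast markers reached it for 7 of 9 genes, with sums of 7451.8 in high salt and 6366.3 in low salt, and Ddr2 and Thy1 did not reach it. Of their 14 probe sets that reached it, 7 had ratios above 1 and 7 below. The median log2 ratio of the 14 was 0.02, so the fibroblast list had no common direction. Vim read 975.5 in high salt against 564.8 in low salt and S100a4 461.8 in high salt against 99.8 in low salt, while Dcn read 1364.9 in high salt against 1443.6 in low salt in probe set X59859_i_at. The S100a4 ratio is a bound, as its low-salt reading was under the floor. Macrophage markers reached the floor for Lyz2 (458.6 in high salt against 130.4 in low salt) and Cd14 (149.1 in high salt against 128.7 in low salt). Their sums were 607.7 in high salt and 259.1 in low salt, and Csf1r and Itgam did not reach the floor. All 3 measured neutrophil markers (Cxcr2, S100a8 and S100a9) and all 5 mast cell markers were under the floor on both arrays. Endothelial markers reached it for 1 of 4 measured genes (Flt1, 121.3 in high salt against 127.9 in low salt) and smooth muscle markers for 1 of 4, Acta2, with sums of 693.6 in high salt and 573.2 in low salt. Red blood cell markers summed to 8113.2 in the high-salt heart, against 3309.6 in the low-salt one. Most of each sum came from 1 Hbb probe set (6982.3 in high salt against 2910.5 in low salt). Of their 4 probe sets that reached the floor, 3 had ratios above 1 and 1 below. Among the 3, 2 reached it in high salt alone and could not be below 1. Slc4a1 read 264.6 in high salt against 119.8 in low salt in one probe set, and 168.3 in high salt against 174.8 in low salt in another. Nppa was the only one of 3 measured atrial markers to reach the floor, and its probe sets summed to 25304.1 in high salt and 2488.5 in low salt. Myl4 and Myl7 stayed under the floor on both arrays, so no difference in atrial muscle can be read from Nppa alone. The part of these markers in the ratios of Timp2, Timp1 and the cathepsins was not tested, and in whole tissue a change in the number of a cell type and a change in its RNA per cell cannot be told apart.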

How the data were processed

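Per the labels' protocols, in vitro transcription of cDNA from heart RNA gave cRNA labelled with biotin, which was hybridised to arrays of 1 colour. The authors deposited 1 linear intensity per probe set and array; the software behind them is not stated in the sources used here. The near-equal trimmed means show that the deposited arrays had been scaled, so the values were used as they stand. Groups came from the source names.

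The genes, lists and main settings were chosen with earlier results of these data known. Names come from the 2016 annotation of the platform, where it gave 1 symbol (7006 of 8740 non-control probe sets; 308 had several and 1426 none). All 7 symbols are current in RefSeq. Ratios, high salt over low salt on the log2 scale, were formed with values raised to the noise floor, and a call needs 2-fold. Genes named from the wider lists are those past 2-fold and up to 4 of each list with the largest ratios among those reaching the floor. Genes under the floor, the TGF-beta and cytokine genes, A2m further markers and, beyond the rule, Col3a1, Dcn, Lum, Sparc, Lamb2, Actb and B2m were named after their values were seen. Ratios and calls were tested on simulated arrays. Alternatives were other floors, a pseudocount of 1 with no floor, median, quantile and loess scaling (span 0.4), 1.5-fold and 3-fold thresholds, and other probe set rules. With 1 array per group no test or p-value was computed. Tools were matplotlib 3.10.9, statsmodels 0.14.6, scipy 1.17.1, pandas 2.3.3, numpy 2.4.6 and Python 3.11.15.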

Additional observations from a re-analysis of the deposited data

How the results depend on the processing

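With the floor at the 40th percentile of all values, and likewise with no floor and log2(value + 1), 1 of the 8 measured probe sets of the 7 genes passed 2-fold upward, against 0 of 4 at the noise floor; it was the dim Timp1 probe set. At 1.5-fold the count was 1 of 4, Timp2, where 8.75% of the 1955 probe sets that reached the floor passed upward. With the floor at the 99th percentile of the size of values below 0 (271.2), Timp2 alone was measured, which makes the median log2 ratio 0.68. The count of at least 2-fold lower probe sets of the 7 genes was 0 in every alternative run. Median, quantile and loess scaling moved none of the counts, gave Timp2 log2 ratios of 0.66 to 0.73, and kept all 4 log2 ratios above 0. Plat, a bound at the noise floor, had a log2 ratio of 0.49 with the lower floor and with no floor. In the wider list, 1 of 18 probe sets was at least 2-fold higher and 0 lower at the noise floor. With the 40th percentile floor 3 of 35 were higher and 5 lower, where the rule calls 7.27% of 5707 probe sets higher and 7.62% lower. With no floor 4 of 39 were higher and 6 lower, where it calls 8.37% of 5912 higher and 9.2% lower. Dim probe sets enter in both of these settings. The higher count was 5 of 18 at 1.5-fold, where 8.75% of the 1955 probe sets that reached the floor passed upward. It was 0 of 18 at 3-fold, where 1.07% did. With the median ratio of each gene's probe sets it was 0 of 14, where 38 of 1216 genes passed 2-fold upward. It was also 0 of 11 without probe sets that may share sequence, where 37 of 1152 probe sets did. That last setting removed Timp2, whose only probe set is of this type. It left 3 probe sets of the 7 genes, with a median log2 ratio of 0.21. The wider list's median log2 ratio fell there from 0.24 to 0.07, over 11 probe sets. This median was 0.06 with the 40th percentile floor, 0.07 with no floor and 0.33 with the 99th percentile floor. Adding probe sets with several symbols left the probe sets of the 7 genes that reached the noise floor at 4. No paired analysis was possible because each diet has 1 array. Depth does not apply to arrays; signal over background limits Timp3, Mmp9, Mmp14 and the second Timp1 and Mmp2 probe sets, which lie under the noise floor on both arrays.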

Other observations

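Whole families of related proteases and inhibitors on the array, chosen after the data were seen, were read in the same way. Of the cathepsins, lysosomal proteases, 8 of 12 probe sets reached the noise floor; 7 ratios were above 1, where 892 of 1955 were over the whole array, but 3 of the 7 reached the floor in high salt alone and could not be below 1. The one below 1 was Ctsc, the dipeptidyl peptidase that activates leukocyte serine proteases. It read 81.3 in the high-salt heart, against 169.0 in the low-salt one, at least 1.34-fold lower, and reached the floor in low salt alone. Cstb, cystatin B, an intracellular inhibitor of cathepsins, read 612.5 in high salt against 391.2 in low salt, 1.57-fold higher. Of 20 serpin genes 3 reached the floor, and of these Serpinh1, a chaperone of collagen rather than a protease inhibitor, read 200.3 in high salt against 275.3 in low salt, 1.37-fold lower. None of the 10 ADAM genes on the array, sheddases among them, reached the floor on either array.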
